A study of Mus musculus with 3 samples.

Results

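The cells described here are enteric neurons of the small intestine named for *Ffar2*, *Ffar3* and *Krtdap*, although not every cell had transcripts of these genes. They were chosen by measured values: a cell was a member when at least 3 of the 8 genes *Krtdap*, *Ffar2*, *Ffar3*, *Plcxd3*, *Dmkn*, *Pkp1*, *Tmem132c* and *Stac2* had at least 1 UMI (unique molecular identifier, 1 captured RNA molecule). The rule found 243 members among the 2060 deposited neurons. All cells came from 3 Ednrb-KO mice at postnatal day 14, 1 library per mouse. The strain is labelled C57BL/6, although some of the stocks that were crossed are of mixed origin. These mice lack the endothelin receptor B and are a model of Hirschsprung disease, in which the distal bowel has no neurons. All 3 also carried Wnt1-Cre and a tdTomato reporter, so that red cells of the neural crest lineage could be sorted from the small intestinal longitudinal muscle with its myenteric plexus. There was no control group among the samples, so each comparison sets members beside other cells of the same mouse, and replication is over mice, not cells.

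Excitatory motor neurons of the gut contract smooth muscle by releasing acetylcholine and tachykinins, whereas inhibitory motor neurons relax it through nitric oxide, VIP and related peptides. *Ffar2* and *Ffar3* are the G protein-coupled receptors for short-chain fatty acids, the acetate, propionate and butyrate that gut bacteria make from fibre. *Krtdap* and *Dmkn* (dermokine) encode secreted proteins best known from differentiating epidermis, and *Pkp1* encodes plakophilin 1, a desmosome protein of skin. *Plcxd3* encodes a protein with a phospholipase C X domain, *Tmem132c* a single-pass membrane protein, and *Stac2* an adaptor that binds voltage-gated calcium channels.

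Members were unevenly spread over the mice. They made up 7 of 354 cells in library 1 (1.98%, exact 95% interval 0.799% to 4.03%), 134 of 1050 in library 2 (12.8%, 10.8% to 14.9%) and 102 of 656 in library 3 (15.5%, 12.9% to 18.6%). The intervals cover counting error only. Library 1 was shallower, with a median of 3734.5 UMIs per cell against 9599.5 in library 2 and 9578.5 in library 3. Members were also deeper than other cells, with a median of 12897 against 8996.5 UMIs in library 2 and 12964 against 9003 in library 3. When every cell was thinned to 3000 UMIs before the rule was applied, the shares became 1.81%, 3.62% and 5.24%. Cells below that depth were left out, namely 1, 2 and 0 members and 77, 53 and 45 other cells in libraries 1, 2 and 3. The share found by the rule thus moved with the depth at which it was applied.

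**Figure D1:**
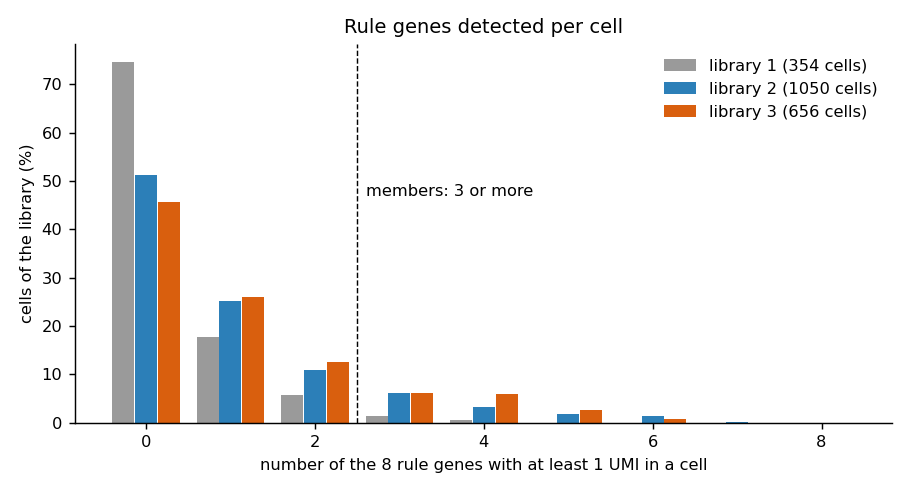
Share of the cells of each library (y axis, %) by the number of the 8 rule genes with at least 1 UMI (x axis). The dashed line marks the rule. Most cells had 0 or 1 of the genes, and no cell had all 8.

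The edge of the rule was not a gap. In library 2, 114 cells had 2 of the genes, just outside, and 64 had 3, just inside. In library 3 the numbers were 83 and 41. The highest number was 7 genes, in 1 cell of library 2.

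Library 1 did not match the name of this group. None of its 7 members had a UMI of *Krtdap*, *Ffar2* or *Ffar3*, and they passed through *Plcxd3*, *Dmkn*, *Tmem132c*, *Stac2* and *Pkp1*. With fewer than 10 members the library was left out of the fits, and its values are given beside the results where they differ. In libraries 2 and 3, 186 of 236 members (78.8%) had at least 1 of *Krtdap*, *Ffar2* and *Ffar3*, whereas 50 had none. Only 7 had all 3 genes and 17 had both fatty acid receptors. The 236 cells showed 77 different combinations of the 8 genes, the most frequent being *Ffar3*, *Plcxd3* and *Dmkn* in 18 cells.

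The values of the rule genes chose the cells and are a description with no test. *Dmkn* was the broadest, detected in 96.3% and 97.1% of members in libraries 2 and 3 and in 22.7% and 28.0% of other cells. *Plcxd3* followed with 76.1% and 76.5% of members, and *Tmem132c* with 58.2% and 52.0%. *Ffar3* was found in 44.0% and 52.0% of members against 2.84% and 4.33% of other cells. *Ffar2* was scarcer, at 23.1% and 25.5% against 1.64% and 1.08%. *Krtdap* was found in 38.8% and 42.2% against 4.91% and 4.51%. *Stac2* was detected in 29.1% and 22.5% of members and *Pkp1* in 24.6% and 18.6%, against 1.81% to 2.89% of other cells for both genes.

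As a check for free RNA, the same genes were read in 24 cells of libraries 2 and 3 outside the members with at least 1% of their UMIs in 6 smooth muscle genes, a limit set after the data were seen. Their median depth was 9188 UMIs. *Dmkn* was detected in 41.7% of them and *Krtdap* in 12.5%, above their shares in all other cells, and their part as background there was not tested. In other cells neither gene was spread evenly: *Dmkn* was at 2.80 and 2.63 UMIs per 10000 in the non-members of cluster 4 (clusters are described further on) and at 0.471 and 0.501 in those of cluster 1, and 1 non-member cell of each library held 21 and 28 *Krtdap* UMIs. *Ffar2* and *Ffar3* were detected in 0 of 24, which allows a share of up to 12.5%.

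*Krtdap* differed from the other rule genes in how its molecules were distributed. The top 3 member cells of library 2 held 62, 61 and 44 UMIs, 46.9% of all *Krtdap* UMIs of the members there, and the top 3 of library 3 held 45.2%. *Ffar2* in contrast reached at most 2 UMIs in a member of library 2 and 4 in library 3, and *Ffar3* at most 5 and 9. Across libraries 2 and 3, 17 cells had at least 10 *Krtdap* UMIs, 15 of them members. All 17 had *Calb2* and *Dmkn*, 16 had *Oprk1*, 15 had *Slc18a3*, 14 had *Chat*, 9 had *Ffar3*, 4 had *Ffar2*, 3 had *Nos1* and 1 had *Sst*. Of the 9 such cells in library 2, 8 had *Chat* and 8 had *Slc18a3*, at a median of 27 *Calb2* UMIs. Of the 8 in library 3, 6 had *Chat* and 7 had *Slc18a3*, at a median of 31 *Calb2* UMIs.

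Each gene was also read in cells picked by the other rule genes, as a description, since the same values chose the members. Taking each gene in turn and looking only at the other 7, cells with at least 3 of the others had *Ffar3* in 33.0% (37 of 112) in library 2 and 38.8% (31 of 80) in library 3, against 5.12% and 7.99% of the remaining cells. For *Krtdap* the shares were 29.9% and 37.2% against 6.65% and 5.87%, and for *Ffar2* 17.6% and 19.1% against 2.59% and 2.49%. The shares were higher for each of the other 5 genes in libraries 2 and 3 too, with the smallest for *Pkp1* at 19.8% and 16.2% against 2.92% and 2.33%. Single pairs did not all follow: in library 3, 1 of 32 *Ffar2* cells had *Stac2* (3.12%), against 5.95% of all cells. In library 1 these 3 genes were found in 0 of 7 such cells. Cells with more of the genes were also deeper, and the part of depth in these gaps was not tested.

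Of the 8 rule genes 4 lie at a single locus. *Dmkn* (chromosome 7, 30763756 to 30781063, plus strand), *Krtdap* (30787896 to 30791097, plus strand), *Ffar2* (30818348 to 30823775, minus strand) and *Ffar3* (30854330 to 30856178, minus strand) are 4 consecutive genes in GENCODE M21 on GRCm38, with no other annotated gene within the 92.4 kb from the first to the last. The remaining genes are elsewhere: *Plcxd3* on chromosome 15 (4375491 to 4575553, plus strand), *Tmem132c* on chromosome 5 (127241808 to 127565793, plus strand), *Pkp1* on chromosome 1 (135871395 to 135919207, minus strand) and *Stac2* on chromosome 11 (98036623 to 98053462, minus strand). The sequences upstream of the annotated starts of the 4 neighbours are shown because these genes share a locus and are all part of the rule. Their co-detection was partial: in library 2, 9 of 46 cells with *Ffar2* had *Ffar3* (19.6%), and in library 3, 9 of 32 (28.1%). Both shares were above those of all cells, of which 8.1% and 11.7% had *Ffar3*. Each sequence is the 250 bases before the transcription start in RefSeq on GRCm38.p6, 5′ to 3′ on the strand of the gene. They lie at chr7:30763506-30763755, chr7:30787655-30787904, chr7:30823776-30824025 and chr7:30856179-30856428. *Dmkn* and *Ffar2* have 3 and 4 annotated starts, of which 1 each is shown. Capitals mark the matches to the motifs searched.
Dmkn: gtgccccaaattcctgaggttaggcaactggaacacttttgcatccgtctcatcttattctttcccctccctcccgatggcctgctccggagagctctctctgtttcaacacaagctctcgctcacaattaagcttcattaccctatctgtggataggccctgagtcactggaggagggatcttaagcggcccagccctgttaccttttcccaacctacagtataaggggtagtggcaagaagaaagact
Krtdap: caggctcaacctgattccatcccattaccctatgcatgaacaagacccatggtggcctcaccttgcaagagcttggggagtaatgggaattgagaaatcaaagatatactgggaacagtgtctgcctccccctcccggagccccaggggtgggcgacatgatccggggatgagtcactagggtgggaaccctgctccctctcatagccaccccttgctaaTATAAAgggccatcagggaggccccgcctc
Ffar2: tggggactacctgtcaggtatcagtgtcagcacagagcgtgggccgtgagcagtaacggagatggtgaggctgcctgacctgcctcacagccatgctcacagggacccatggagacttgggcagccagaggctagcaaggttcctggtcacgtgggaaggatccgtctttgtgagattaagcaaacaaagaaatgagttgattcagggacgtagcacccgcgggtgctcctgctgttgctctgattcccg
Ffar3: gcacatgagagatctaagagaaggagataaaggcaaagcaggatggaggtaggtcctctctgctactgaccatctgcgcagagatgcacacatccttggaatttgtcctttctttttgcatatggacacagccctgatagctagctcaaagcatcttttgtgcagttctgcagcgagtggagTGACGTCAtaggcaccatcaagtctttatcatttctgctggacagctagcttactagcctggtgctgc

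On both strands these windows were searched for the TATA box TATAAA, the GC box GGGCGG, the cAMP response element TGACGTCA, the palindromic EBF site, the homeodomain core TAATTA and the ETS site CCGGAAGT. *Krtdap* held a TATA box starting 30 bases before its start, a motif found in 12.4% of 32851 RefSeq promoters of the same length. *Ffar3* held the palindromic cAMP response element starting 68 bases before its start, which 1.55% of the promoters hold. No match was found in *Dmkn* or *Ffar2*. The 4 windows thus had no searched motif in common, and a match is a description of letters, not of binding.

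The genes on either side were not used by the rule and were tested against all other cells of the library, as described further on. Of 26 other annotated genes within 150 kb of *Ffar2* or *Krtdap*, 8 had enough UMIs to test, 2 rose in members and none fell, where 5.54% of all genes tested rose and 5.67% fell. *Sbsn* (suprabasin), which lies next to *Dmkn* and is another secreted epidermal protein, had 0.375 and 0.388 UMIs per 10000 in members of libraries 2 and 3 against 0.237 and 0.201 in other cells. That is a log2 difference of 0.69 ± 0.15 (SE, limma adjusted p = 0.0166), but with all cells thinned before the rule, or with library 1 added, the difference turned to -0.10 and -0.26. *Tmem147*, a broadly expressed membrane protein, rose by 0.34 ± 0.09. *Ffar1*, the long-chain fatty acid receptor directly beside *Ffar3*, had no UMI in members of either library.

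**Figure D2:**
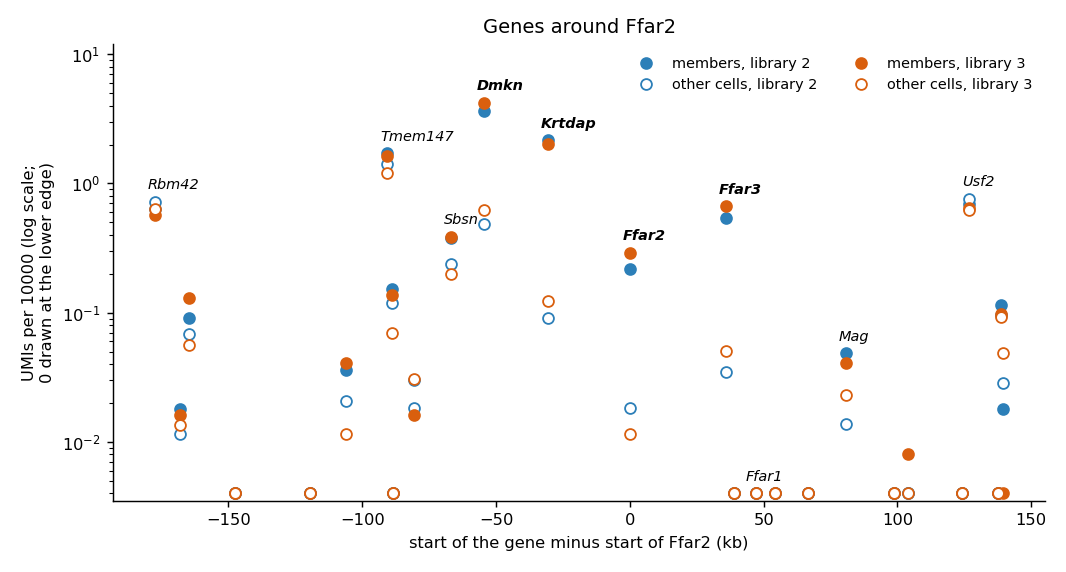
Level (UMIs per 10000, log scale) of each annotated gene in the deposited values within 150 kb of Ffar2 or Krtdap, by the distance of its start from that of Ffar2 (kb). Filled points are members and open points all other cells, bold names are rule genes, and values of 0 are drawn at the lower edge. Filled and open points lie far apart at Dmkn, Krtdap, Ffar2 and Ffar3, where they chose the cells, and close together at most other genes.

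Members were then compared with all other cells of their library on the genes that the rule did not use. UMIs were summed per library and set, expressed per 10000, and tested with limma on log2(level + 0.05) with the library as a block. The fit has 2 libraries and 1 residual degree of freedom, and relies on the spread shared over genes. A gene was called when its Benjamini-Hochberg adjusted p was below 0.05 and both libraries moved the same way. Of 11819 genes tested, 655 (5.54%) were called higher and 670 (5.67%) lower in members. At least 2-fold in both libraries were 69 (0.584%) of those higher and 85 (0.719%) of those lower. Members hold more UMIs per cell than other cells, and the part of this difference in depth in the counts of called genes was not tested apart from the thinned fits. With the rule applied after thinning to 3000 UMIs, which left 36 and 32 members, 0 genes were called higher and 1 lower, with 1990 at an unadjusted p below 0.05, and 95.9% of the 1325 called genes had the same direction. Adding library 1 gave 0 calls, with 536 at an unadjusted p below 0.05.

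The markers named for these cells that the rule left out both rose. *Calb2*, the gene of calretinin, had 13.9 UMIs per 10000 in members and 3.23 in other cells of library 2, and 12.9 and 3.23 in library 3. The log2 difference was 2.03 ± 0.08 (SE, n = 2 libraries, limma adjusted p = 1.28e-06). *Bnc2*, a zinc finger factor that marks one of the main branches of enteric neurons, had 1.70 against 0.403 and 1.79 against 0.558, a log2 difference of 1.77 ± 0.11 (limma adjusted p = 1.87e-05). In library 1 *Calb2* also stood higher in the 7 members, at 8.65 against 3.61. That value rested on 28 UMIs, 67.9% of them in 3 cells, and without those cells the member level was 3.91. Members of both other libraries lay well above the other cells for both genes.

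The cholinergic genes rose as well. *Slc18a3*, the vesicular acetylcholine transporter, had 2.64 and 2.65 in members against 0.712 and 0.989 in other cells (log2 difference 1.60 ± 0.11). *Chat*, which makes acetylcholine, had 0.708 and 0.955 against 0.188 and 0.328 (1.54 ± 0.13). The choline transporter *Slc5a7* and acetylcholinesterase *Ache* rose by 0.97 ± 0.13 and 0.37 ± 0.10, whereas *Slc44a1*, a general choline transporter, fell by 0.39 on the log2 scale. With *Acly* not called, 4 of 6 genes of the acetylcholine list were higher and 1 lower, at a median log2 difference of 0.67 against -0.02 over all genes tested.

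Of 12 genes listed for excitatory motor neurons 10 were tested, of which 9 were called higher, none lower and 1 neither, at a median of 1.49. *Calb2*, *Bnc2* and the lists were chosen with earlier results of these cells known, so the count is not independent evidence. *Tac1*, which encodes substance P and neurokinin A, had 6.98 and 5.76 in members against 2.63 and 2.40 in other cells (1.32 ± 0.08). *Oprk1*, the kappa opioid receptor, had 3.27 and 3.02 against 0.523 and 0.692 (2.29 ± 0.12). The transcription factors *Casz1* and *Satb1* rose by 1.59 ± 0.11 and 1.55 ± 0.10, and *Gfra2*, the neurturin co-receptor, by 1.07 ± 0.10. *Ndufa4l2* rose by 1.43 ± 0.09. *Penk*, the enkephalin precursor, rose by 0.51 ± 0.09 but turned to -0.10 when members had to carry 4 rule genes.

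Inhibitory genes ran the other way. Of 12 tested, 8 fell, *Gch1* rose and 3 were not called, at a median of -1.07. *Nos1*, neuronal nitric oxide synthase, had 0.853 and 1.26 in members against 6.30 and 4.81 in other cells, a log2 difference of -2.35 ± 0.17 (limma adjusted p = 2.86e-05). Its remaining UMIs were concentrated, with 41.8% and 48.7% of them in 3 member cells. *Vip* had 1.52 and 1.38 against 5.82 and 5.80 (-1.97 ± 0.08), and *Etv1*, a transcription factor of the nitrergic branch, 0.901 and 1.15 against 4.69 and 3.95 (-2.03 ± 0.12). *Gal*, which encodes galanin, had 17.9 and 17.7 against 71.2 and 38.2 (-1.55 ± 0.16), and 74.8% and 79.6% of the member UMIs lay in 3 cells. Without the 3 cells with most UMIs in each library the member levels of *Gal* were 4.67 and 3.79. *Npy*, *Cartpt*, *Ass1* and *Scgn* also fell. In library 1 *Nos1* was not lower, at 4.94 against 4.38, and its UMIs were in 1 of the 7 members. *Gch1*, which makes the cofactor of nitric oxide and monoamine synthesis, rose by 1.01 ± 0.17.

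**Figure D3:**
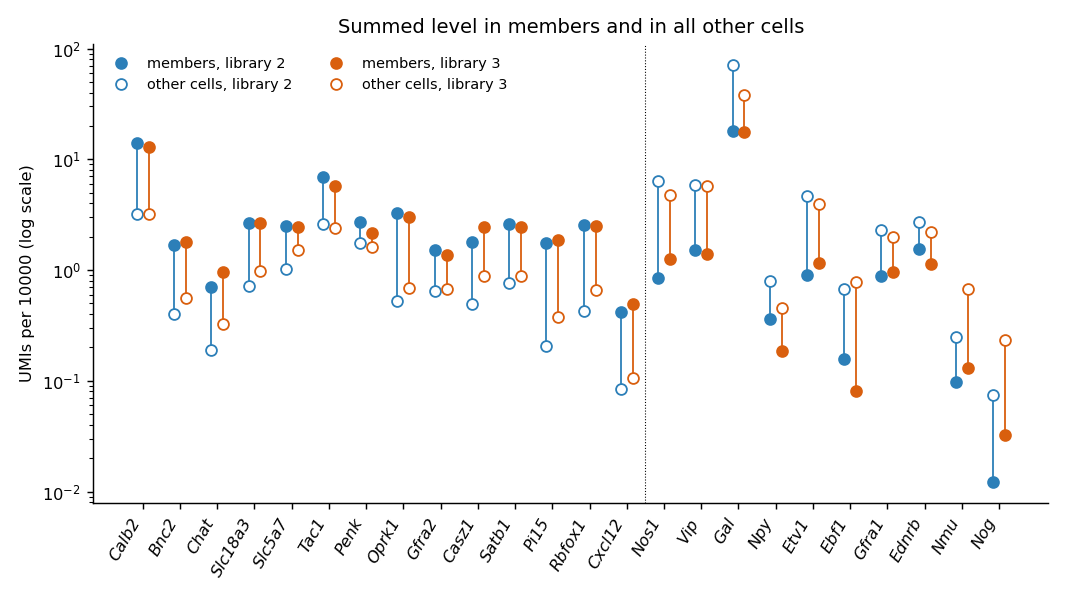
Summed level (UMIs per 10000, log scale) of 24 genes in members (filled) and in all other cells (open) of libraries 2 and 3. The 14 genes to the left of the dotted line were called higher and the 10 to the right lower. The 2 libraries moved the same way at every gene shown, as a call requires. Calb2 was the most abundant of the genes to the left and Gal of those to the right.

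Cells were also sorted by transmitter genes. In library 2, 96 of 134 members (71.6%) had *Chat* or *Slc18a3* without *Nos1*, 3 (2.24%) had *Nos1* without either, 26 (19.4%) had both and 9 (6.72%) had none. In library 3 the shares were 67.6%, 3.92%, 28.4% and 0%, the last being 0 of 102. Among other cells 18.7% and 23.8% were of the first kind and 40.6% and 33.9% of the second. At 3000 UMIs per cell the first kind held 49.2% and 58.8% of members against 15.3% and 19.6% of other cells, and *Nos1* alone 6.06% and 6.86% against 40.2% and 33.4%. The share of members with both markers was then 3.03% and 9.80%. Members with none made up 41.7% and 24.5% at that depth, against 39.4% and 36.5% of other cells.

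The 12 genes that stood highest were named by rank, and some of them are also on the lists. *Pi15*, a secreted peptidase inhibitor, led with 1.74 and 1.85 in members against 0.208 and 0.375 (2.48 ± 0.15). It was followed by *Oprk1*, *Sst*, *Rbfox1* (an RNA splicing factor, 2.13 ± 0.14), *Calb2*, the receptor phosphatase gene *Ptprt* (1.95 ± 0.12), the chemokine gene *Cxcl12* (1.79 ± 0.16), *Bnc2*, *St3gal6*, the folate receptor gene *Folr1*, *Hoxa6* and *Arc*, the last 4 of these between 1.64 and 1.72. *Sst*, the somatostatin gene, has to be read apart: it was found in 9.70% and 7.84% of members and in 10.0% and 11.6% of other cells, and 98.2% and 97.8% of its member UMIs lay in 3 cells per library. Without those cells its member levels were 0.0621 and 0.0416. *Sst* is therefore a gene of a few cells here, and those with at least 10 UMIs numbered 15, of which 5 were members and 10 were not.

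The lowest-ranked genes included, besides *Nos1*, *Etv1* and *Vip*, *Ebf1* (-2.24 ± 0.20), *Bcl11b* (-2.06 ± 0.21), *Dgkb* (-2.06 ± 0.15), *Enpp1* (-1.94 ± 0.16), *Dach1* (-1.91 ± 0.15) and *Dgkg* (-1.90 ± 0.19). Of the *Ebf1* UMIs left in members, 92.3% and 70.0% were in 3 cells. The 3 lowest were the haemoglobin genes *Hbb-bs*, *Hba-a1* and *Hba-a2*, with 9.36, 2.17 and 1.79 UMIs per 10000 in other cells of library 3 and at most 0.0758 in other cells of library 2. These are genes of red blood cells, and library 3 alone carried their difference.

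Transcription factors of enteric neuron branches moved in both directions, 10 of 38 tested being higher and 12 lower, at a median of -0.29. Besides *Bnc2*, *Casz1*, *Satb1* and the splicing factor *Rbfox1*, which is on the same list, those higher included *Ebf3* (0.88 ± 0.10), *Phox2a* (0.74 ± 0.08), *Nfib* and *Hand2*. *Tbx3*, a T-box factor, was at 1.34 and 1.14 in members (-1.23 ± 0.09). Among genes of immature neurons 7 of 14 fell, including *Insm1* and *Sox4*, and 2 rose (*Dcx* and *Tubb2b*). Of 20 genes of all neurons 4 rose and 2 fell, and their summed level was 87.5 and 81.0 in members against 72.1 and 71.7 in other cells. *Snap25*, a synaptic release protein, rose by 1.13 ± 0.08, while *Tubb3*, the neuronal tubulin, fell by 0.45 on the log2 scale. Of 8 tested genes of endothelin and GDNF signalling *Gfra2* rose and 3 fell, *Gfra1* by 1.17, *Ednrb* by 0.87 on the log2 scale, and *Edn1*. *Ednrb*, the targeted gene, had 1.54 and 1.12 UMIs per 10000 in members against 2.73 and 2.18. Whether these UMIs come from inside or outside the deleted part cannot be told from the deposited values.

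Genes that could act with the rule genes were read as lists. Over all genes tested, 5.54% rose and 5.67% fell. Of 28 genes of G protein signalling 24 were tested, 4 rose and 3 fell, at a median of -0.01. *Rgs4*, which shortens signals of Gi and Gq coupled receptors, rose by 1.43 ± 0.08, from 1.46 and 1.65 in other cells to 4.25 and 4.27 in members. *Adcy1* rose by 0.92 ± 0.14, and *Gnao1* and *Plcb4* by 0.38 and 0.36. The inhibitory G protein genes *Gnai1* and *Gnai2*, through which *Ffar3* signals, differed by -0.02 ± 0.11 and -0.17 ± 0.08, and neither was called. Of 8 tested genes of the monocarboxylate transporter list none was called. Of 18 metabolite receptor genes, 10 had no UMI in members of libraries 2 and 3, among them *Ffar1*, *Hcar1* and *Hcar2*, and *Ffar4* had 1 UMI in members of each library. Only *Lpar1* of that list was tested, and it fell by 0.53 on the log2 scale. Of 13 tested genes listed for calcium channels and their partners 3 rose and none fell, namely *Cacna1e* (1.15 ± 0.16), *Cacna1h* (0.77 ± 0.15) and *Cacna2d1* (0.34 ± 0.09). Against other cells with *Bnc2* or *Chat*, compared further on, none of the 13 was called, at a median of -0.10 against -0.03 over all genes.

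Receptors for the transmitters of enteric circuits were read as well. *Chrm2*, the M2 muscarinic receptor gene, had 1.05 and 0.785 UMIs per 10000 in members against 0.485 and 0.471 in other cells (log2 difference 0.86 ± 0.12), while *Chrm1* was not called. *Chrna7*, a nicotinic receptor subunit, rose by 0.50 ± 0.14 and was the only one called of 6 nicotinic genes tested. *Chrna3*, the main nicotinic subunit of the myenteric plexus, had 1.56 and 1.55 against 1.41 and 1.44 and was not called. Of 9 tested genes of tachykinins, opioids and their receptors *Tac1*, *Penk* and *Oprk1* rose and *Tac2* and *Pdyn* fell, whereas the mu and delta receptor genes *Oprm1* and *Oprd1* were not called. Besides *Calb2*, the calcium-binding protein gene *Necab2* rose, with 0.732 and 0.388 against 0.234 and 0.251, and *S100a1*, *S100a10* and *Scgn* fell, of 13 tested. Of the relatives of *Plcxd3*, *Stac2* and *Tmem132c*, 2 of 8 had enough UMIs to test, and neither *Stac* nor *Tmem132a* was called.

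Genes of sensory neurons, which detect stretch and chemicals, included none that rose. Of 11 tested, *Nmu*, *Nog*, *Calcb*, *Cysltr2*, *Grp* and *Htr3a* fell, at a median of -1.02 over the list. Of 7 tested genes of interneurons *Sst* and *Penk* rose and none fell, at a median of -0.07. Over all genes tested 5.54% rose and 5.67% fell. Nearly all member UMIs of *Sst* lay in few cells, and *Penk* turned with 4 or more rule genes, as given above.

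Epidermal genes were read as a list. Of 24 listed, 9 had no UMI in members of libraries 2 and 3, among them the keratins *Krt5* and *Krt14*, the epidermal master factor *Trp63* and the desmogleins *Dsg1a* and *Dsg3*. Of 8 tested, *Sbsn*, *Dsc3*, *Lgals7* and *Fabp5* rose, none fell and 4 were not called, at a median of 0.32 against -0.02 over all genes, of which 5.54% rose. The direction of *Sbsn* turned with the rule applied after thinning and with library 1 added, as given above. *Dsc3*, a desmosomal cadherin, had 0.224 and 0.178 in members against 0.0425 and 0.0502 (1.38 ± 0.20), and still 0.155 and 0.0912 without the 3 member cells with most UMIs in each library. Of 9 tested genes of the desmosome and catenin list none was called, and *Dsp*, the gene of desmoplakin, had no UMI in members. Against the other *Bnc2* or *Chat* cells, a set described further on, *Lgals7* alone of 8 tested epidermal genes was called higher and 7 were not called. The median of the epidermal list was then 0.32 against -0.03 over all genes, of which 2.25% rose.

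Markers of other cell types were read in the same sets. Of 12 glial genes 8 fell in members, and their summed level was 19.4 and 19.0 against 34.4 and 26.1 in other cells. Of 10 smooth muscle genes 2 fell, with a summed level of 18.0 against 17.9 in library 2 and 7.86 against 13.6 in library 3. No gene of the fibroblast, endothelial, epithelial or mesothelial lists was called, and *Adgre1* alone rose of 5 macrophage genes tested. The part of glial RNA in the differences above was not tested. When cells with at least 3 of 6 smooth muscle or 3 of 6 glial genes were left out, only 18 and 25 members remained, 73 genes were called higher and 152 lower, and 94.9% of the 1325 genes had the same direction.

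The levels followed the number of rule genes. *Calb2* went from 1.59 and 1.71 UMIs per 10000 in cells with 0 rule genes of libraries 2 and 3 to 6.67 and 6.38 with 2, to 8.16 and 9.18 with 3, and to 21.2 and 16.1 with 5 or more. *Oprk1* went from 0.212 and 0.165 to 3.77 and 3.55 over the same range. *Nos1* ran from 6.73 and 5.69 down to 0.157 and 0.134, and *Gal* from 53.8 and 28.2 to 1.17 and 0.970, after a peak of 94.3 at 1 gene in library 2 and 53.3 at 2 genes in library 3. The fall was not even: in library 3 *Nos1* had 2.06 at 2 genes and 2.90 at 3, and *Gal* still had 43.9 at 3. *Tac1* did not separate members from the cells just outside the rule: it had 8.69 and 6.06 at 2 genes 7.48 and 3.77 at 3, and 7.20 and 8.30 at 5 or more. Median depth rose along the same axis, from 7968 and 8344 UMIs at 0 genes to 13454 and 14058 at 5 or more, so grade and depth cannot be told apart here.

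**Figure D4:**
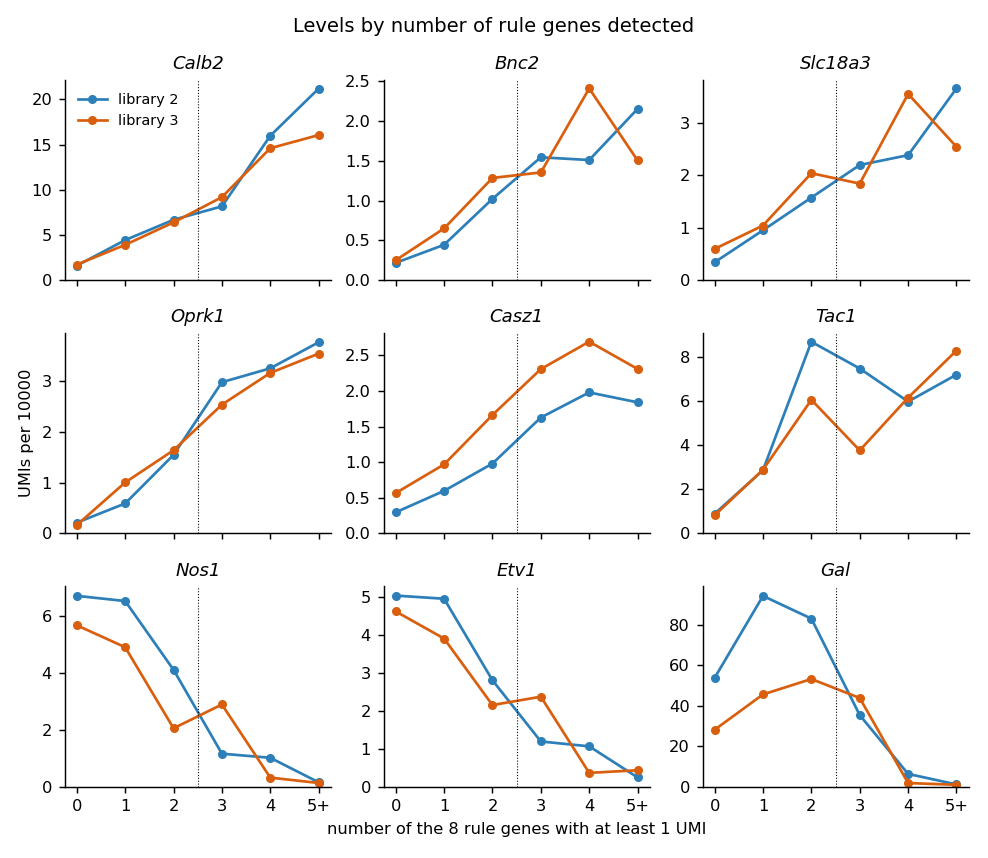
Level (UMIs per 10000) of 9 genes in cells with 0, 1, 2, 3, 4 and 5 or more rule genes, in libraries 2 and 3. The dotted line marks the rule. Calb2 and Oprk1 rise along the axis in both libraries. Nos1, Etv1 and Gal are lowest at 4 or more genes, and in library 3 Nos1 and Etv1 are higher at 3 genes than at 2. Tac1 has no single order beyond 2 genes.

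Because members share many of these genes with other neurons of the *Bnc2* branch, they were also compared with the 237 and 192 other cells of libraries 2 and 3 that had *Bnc2* or *Chat*. *Bnc2*, *Chat* and the rule genes were left out. Any UMI of either gene was enough for this set, while members needed neither and had *Bnc2* in 78.4% and 79.4%. The summed level of the inhibitory list was 33.2 and 29.1 in members against 48.1 and 34.3. Whether all cells of either set belong to the branch was not tested. Of 11817 genes, 266 (2.25%) were called higher and 325 (2.75%) lower. Here limma put all weight on the shared spread, so its p-values reflect little of the 2 mice and are not printed, and the levels are given instead. After thinning to 3000 UMIs only 1 gene was called in each direction, although 99.7% of the 591 genes kept their direction. Markers of other cell types were lower in members here too, 7 of 10 smooth muscle genes, 6 of 12 glial genes and *Dcn* of 6 fibroblast genes. The summed level of the smooth muscle list was 18.0 and 7.86 in members against 25.2 and 13.7, and that of the glial list 19.4 and 19.0 against 32.3 and 22.6. Their part in the calls was not tested. Without cells that held such markers 0 genes were called by limma, with 590 at an unadjusted p below 0.05, and 89.3% of the 591 kept their direction.

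Against these *Bnc2* or *Chat* cells *Calb2* was still higher, at 13.9 and 12.9 in members against 5.02 and 4.38. *Pi15* was higher at 1.74 and 1.85 against 0.441 and 0.745, and *Oprk1* at 3.27 and 3.02 against 1.37 and 1.52. *Cxcl12*, the R-spondin gene *Rspo2* (0.768 and 0.793 against 0.253 and 0.275), *St3gal6* and *Enpp6* were among the 12 highest. *Slc18a3*, *Satb1*, *Casz1*, *Gfra2* and *Rgs4* were also called higher, by 0.80, 0.86, 0.59, 0.57 and 0.83. *Tac1* was not called, with 6.98 and 5.76 against 6.83 and 4.55, and neither was *Ndufa4l2*. *Penk* was called lower, with 2.70 and 2.15 against 3.81 and 2.96, the opposite direction to that against all cells.

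Genes of sensory neurons were lower in members than in the other *Bnc2* or *Chat* cells. Of 11 tested, 8 were called lower and none higher, at a median of -0.94 against -0.03 over all genes. *Nmu*, the neuromedin U gene, had 0.0968 and 0.130 in members against 0.353 and 0.735. *Nog*, which encodes the BMP antagonist noggin, had 0.0121 and 0.0324 against 0.113 and 0.312. *Calcb*, a calcitonin gene-related peptide gene, had 0.490 and 0.850 against 0.789 and 2.57, with 82.7% and 70.5% of the member UMIs in 3 cells. The 12 lowest genes also included *Cntn5*, *Cox8b*, *Igfbpl1*, *Chodl*, *Dgkg* and *Ntrk3*, the neurotrophin 3 receptor gene. *Nos1* and *Etv1* were lower by 0.66 and 0.81 on the log2 scale, less than against all cells. With members of 2 or more rule genes *Nos1* came to -0.0022 in libraries 2 and 3, and to 0.25 where library 1, which then has 27 members, was in the fit.

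To see whether members form a group of their own, all cells were clustered without the 8 rule genes. Members did not fall into a single one of the 13 clusters. Cluster 3 held 101 of 243 members (41.6%), which were 59.4% of its 170 cells, and cluster 4 held 57 (23.5%), 33.7% of its 169 cells. Clusters 1 and 0 held 39 and 32 members, 12.1% and 8.58% of their cells. In libraries 2 and 3, 44.0% and 41.2% of members were in cluster 3, against 8.86% and 11.7% of all cells. Cluster 2 was made of library 1 alone and held 6 of its 7 members. Clusters are named by number, since their genes include those of the cells that made them.

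**Figure D5:**
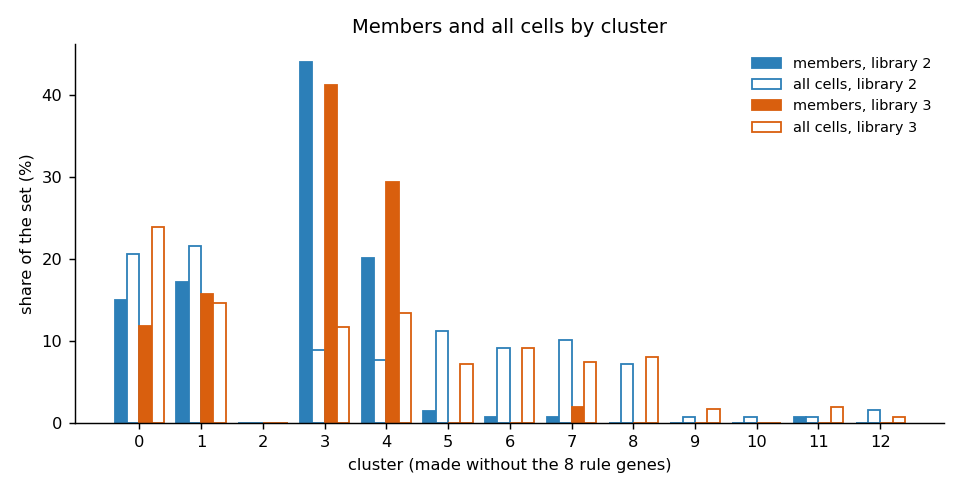
Share of the members (filled) and of all cells (open) of libraries 2 and 3 in each of 13 clusters made without the 8 rule genes. Cluster 3 held 44.0% and 41.2% of the members, and clusters 0 and 1 held members at shares closer to those of all cells.

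The members of these clusters differed in which rule genes they carried. In cluster 3 *Krtdap* was at 3.98 and 2.96 UMIs per 10000 in the members of libraries 2 and 3, against 0.300 and 0.407 in those of cluster 4. *Ffar3* ran the other way, at 0.644 and 0.552 in cluster 3 and 1.20 and 1.26 in cluster 4. *Ffar2* was at 0.289 and 0.310 in cluster 3 and at 0.150 and 0.361 in cluster 4, an order that was not the same in both libraries. Members of cluster 3 had *Calb2* at 22.2 and 19.5, whereas those of cluster 4 had 5.86 and 5.42 but more *Tac1* (19.5 and 13.4 against 6.20 and 5.07), *Oprk1* (8.11 and 6.73 against 3.48 and 2.72) and *Penk* (5.21 and 6.32 against 0.894 and 0.672). *Nos1* was at 0.587 or below in members of both clusters.

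In the members of cluster 0 *Gal* was at 85.7 and 104 and *Nos1* at 2.93 and 3.33, and *Bnc2* at only 0.315 and 0.483. *Gal* was detected in 16 of 20 and 11 of 12 of these members, but few cells held most of its UMIs. Of its 2717 UMIs in library 2, 1904 were in 1 cell, and of 1934 in library 3, 1136 and 521 were in 2 cells. In cluster 1 *Nos1* was at 0.642 and 0.416 and *Bnc2* at 1.28 and 1.29. The excitatory name thus goes against the *Nos1* and *Bnc2* levels of the members in cluster 0, which were 20 of 134 and 12 of 102. These were the deepest of the 4 clusters, with a median of 16797 UMIs per member against 6747 in cluster 4.

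Members with at least 1 of *Krtdap*, *Ffar2* and *Ffar3* and members with none were set side by side. In library 2 the 100 with and 34 without had *Calb2* at 14.1 and 13.2, *Bnc2* at 1.74 and 1.57 and *Slc18a3* at 2.78 and 2.22. In library 3 the 86 with and 16 without had *Calb2* at 13.0 and 12.1, *Bnc2* at 1.68 and 2.48 and *Slc18a3* at 2.64 and 2.71. *Gal* was higher in those with, at 22.9 against 2.32 and 20.4 against 1.15, and *Sst* at 4.50 against 0.0250 and 2.12 against 0.0577. Most UMIs of both genes in those with lay in few cells. No difference was tested, as the split uses genes of the rule.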

How the data were processed

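Single-cell RNA-seq of sorted tdTomato-positive cells was performed by the authors in 3 mice (10x Chromium v3.1). Reads were aligned and counted with Cell Ranger on mm10 (versions not given in the sources used here). Cells were filtered, merged in Seurat and reduced to neurons. The deposited values are natural log (ln) values, ln(1 + UMIs per 10000 UMIs of the cell), for 33353 genes, with some genes removed by the authors. UMIs were recovered from them, and 100% came out whole within 1e-06. In all, 0 columns lay outside the sample list.

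The members and all gene lists were chosen with earlier results of these data known. Levels are summed UMIs per 10000 per library and set. limma 3.58.1 (R 4.3.3) was used on log2(level + 0.05), with a pseudocount that understates changes of low genes, on genes with at least 20 UMIs in each fitted library and sets of at least 10 cells. The library was the block, since both sets of a library come from the same mouse. Named genes are all listed genes, the 12 highest and 12 lowest called genes of each comparison and all genes within 150 kb of *Ffar2* or *Krtdap*; of the lists, single values are printed for a part. Other settings were tried as given at the end. Clusters were made with Seurat 5.3.0 (20 principal components, resolution 0.5). Scrublet in scanpy 1.11.5 marked 10 cells (0.485%), 1 of them a member, which says little about doublets in a table of neurons alone. 2 barcodes occur in more than 1 library, none of them in a member. Gene positions are from GENCODE M21, which may differ from the annotation the authors used. In simulated data for the comparison with all other cells, 52% and 50% of genes changed 2-fold and 88% and 91% of those changed 4-fold were recovered in 2 draws over 11820 genes. For the comparison with *Bnc2* or *Chat* cells the shares were 43% and 32%, and 89% and 89%. Every gene was drawn with the same variation beyond counting, so these shares may not carry over to the measured values. Results for some genes are not reported here.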

Additional observations from a re-analysis of the deposited data

How the results depend on the processing

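The share of members moved with the rule in every library. At 2 or more genes it was 7.63%, 23.6% and 28.2% in libraries 1, 2 and 3, at 4 or more 0.565%, 6.67% and 9.30%, with 2 UMIs per gene 0%, 3.90% and 4.42%, and after thinning 3.62% and 5.24% in libraries 2 and 3. Scrublet calls did not move it beyond its interval.

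Against all other cells, the numbers of genes higher and lower were 291 and 301 with no replicate block, 203 and 182 after thinning, 0 and 1 with the rule applied after thinning, 4 and 1 with 2 or more rule genes, where library 1 enters with 27 members, but 1098 and 1174 with 2 or more in libraries 2 and 3 alone, 73 and 152 without cells holding other markers, and 0 and 0 with library 1 added. The number lower was 1137 with 4 or more genes, 1060 with means over cells and 1084 with members that had *Ffar2*, *Ffar3* or *Krtdap*, an alternative chosen after seeing the data, as were adding library 1 and 2 or more genes in libraries 2 and 3. Against other *Bnc2* or *Chat* cells they were 50 and 47 with no replicate block, 1 and 1 after thinning, 21 and 50 with the rule after thinning, 69 and 97 with means over cells, and 519 lower with 4 or more genes. limma made 0 and 0 calls with a filter of 1 UMI, with 2 or more rule genes and library 1, without cells holding other markers, and with library 1 added, where 1503, 748, 590 and 241 genes had an unadjusted p below 0.05. With 2 or more rule genes in libraries 2 and 3 alone, 306 were higher and 278 lower. The cause was not tested. Leaving out library 2 or 3 leaves 1 pair and no residual degree of freedom, so no count could be had. All 53 and 31 genes followed in detail kept their direction in either library alone. A call requires this, so it is no further support for the called genes among them. Library 1 is in none of the fits but those named with it.

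Directions turned as follows. With cells holding other markers left out, *Hba-a1* and *Hba-a2* came to 0.00, *Hbb-bs* to 0.69 and *Sst* to -0.60 against all cells, and *Sst* to -1.75 against *Bnc2* or *Chat* cells. With the rule after thinning *Sbsn* was -0.10 and *Sst* -1.37, and against *Bnc2* or *Chat* cells *Hoxa6* was -0.041 and *Sst* -1.74. With library 1 *Sbsn* was -0.26, and against *Bnc2* or *Chat* cells *Sst* was -0.59, *St3gal6* -0.012 and *Tnr* 0.13. *Penk* was -0.10 with 4 or more genes, and *Nos1* 0.25 against *Bnc2* or *Chat* cells with 2 or more and library 1. The cluster with most members held 29.6% of them at resolution 1.0, 28.4% at 2.0, 30.9% with 30 components and 29.2% without library 1. Members made up 80.0%, 79.3%, 81.5% and 80.2% of the cells of these clusters, against 59.4% of cluster 3 in the main setting. Each of these clusters thus held a smaller part of the members but fewer other cells beside them. The depth of library 1 and the number of mice limit all of these values.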
